A study of Rattus norvegicus with 6 samples.

Results

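Genes known from pancreatic duct cells and other simple epithelia were compared between islets of adult rats and of rats 10 days old (P10). The set held 9 genes: the keratin genes Krt7, Krt8, Krt18 and Krt19, and Cftr, Spp1, Car2, Onecut1 and Muc1. A gene was measured where the RefSeq accession of an array probe matched a transcript listed for it, which was the case for 7 of the 9, with 1 probe and 1 spot per array for each. These were 7 of 13903 genes named on the array, and 7 of its 24684 probes that were not controls. Krt7 and Muc1 matched no accession here and were not analysed.

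Pancreatic ducts are lined by a simple epithelium that drains digestive enzymes and adds a fluid rich in bicarbonate. Its cells carry keratin filaments, built from pairs of a type II keratin (Krt7, Krt8) and a type I keratin (Krt18, Krt19). Carbonic anhydrase 2 (Car2) supplies bicarbonate inside the cell, and the chloride channel Cftr sets up its export. Onecut1, a transcription factor also called Hnf6, acts in the embryonic duct and in liver. Few of these genes belong to ducts alone, since Krt8 and Krt18 are found in many simple epithelia, Spp1 in macrophages, Car2 in red cells and Krt19 in mesothelium.

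The adult group held islets of 3 male rats, and the P10 group 3 pools of islets from several young rats. Total RNA was amplified into cRNA labelled with Cy3 and hybridised to 1-colour Agilent arrays, with 1 sample per array, and how the islets were isolated is not given in the sources used here. No genetic change or drug is named for either group, and the sources used here leave out strain, adult age and, for P10, sex. A pool averages over its animals, so its spread is not that between single young rats. Per array, 17932 to 18901 probes were well above background and 0 spots were saturated. Arrays with the same scan date in the file headers were taken as 1 slide, and no slide label was read. By that rule adult array 1 shared slide 1 with all P10 arrays, while slide 2 carried adult arrays 2 and 3 alone. Over 2947 probes printed 3 times, the variance of adult array 2 against array 3 was 1.23 times that expected from spot noise, and of P10 array 1 against array 2 it was 0.972 times. For the remaining pairs it was 16.8 to 21.4 times in adults and 1.30 to 1.55 times at P10. The first 2 pairs, nearest to spot noise in their stage, were each reduced to their mean and entered as 1 sample, so that n = 2 per stage, although these values do not settle whether their RNA was separate. The p-values measure the spread between these samples only. At P10 that is array 3 against the mean of arrays 1 and 2, and in adults array 1 against the mean of arrays 2 and 3. The 2 adult samples also differ in slide, so spread between slides and between adults cannot be told apart. Levels are given in log2 above or below the 75th percentile of all probes on that array, and differences are adult minus P10 in log2. A gene was called where limma's p, adjusted over all 18386 probes tested, was under 0.05.

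Upstream sequence was at hand for 4 of the 7 measured genes in the RefSeq promoter table of GRCr8. It is shown for the keratin partners Krt8 and Krt18, which lie next to each other on chromosome 7, and for Cftr and Spp1, which stood among the steepest falls described further on. Each run gives the 250 bases before the tabulated start, 5′ to 3′, with letters in capitals where a searched motif was found on either strand.
Krt8, GRCr8 chr7:135010340-135010589, minus strand: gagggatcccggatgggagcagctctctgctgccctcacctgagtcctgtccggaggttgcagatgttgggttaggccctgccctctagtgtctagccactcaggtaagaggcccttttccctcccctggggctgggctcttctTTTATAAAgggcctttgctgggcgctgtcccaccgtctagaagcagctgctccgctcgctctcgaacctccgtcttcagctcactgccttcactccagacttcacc
Krt18, GRCr8 chr7:135035918-135036167, plus strand: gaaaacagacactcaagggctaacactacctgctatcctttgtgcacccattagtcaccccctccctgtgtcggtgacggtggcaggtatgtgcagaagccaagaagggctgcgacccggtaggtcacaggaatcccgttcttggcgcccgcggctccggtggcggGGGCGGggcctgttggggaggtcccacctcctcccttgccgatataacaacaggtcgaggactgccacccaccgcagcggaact
Cftr, GRCr8 chr4:47527379-47527628, plus strand: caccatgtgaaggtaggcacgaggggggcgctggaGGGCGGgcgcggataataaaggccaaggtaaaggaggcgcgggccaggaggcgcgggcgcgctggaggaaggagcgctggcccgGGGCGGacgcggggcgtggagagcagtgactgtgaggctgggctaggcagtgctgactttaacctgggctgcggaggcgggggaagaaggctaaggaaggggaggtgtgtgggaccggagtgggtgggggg
Spp1, GRCr8 chr14:5619805-5620054, minus strand: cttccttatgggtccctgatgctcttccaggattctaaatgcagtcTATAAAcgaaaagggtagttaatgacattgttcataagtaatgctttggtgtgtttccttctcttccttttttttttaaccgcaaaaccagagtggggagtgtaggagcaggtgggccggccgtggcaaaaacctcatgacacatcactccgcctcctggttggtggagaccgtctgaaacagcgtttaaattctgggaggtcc
The motifs were the TATA box TATAAA, the Onecut core ATTGAT, the GC box GGGCGG, the CCAAT box CCAAT and the AP-1 site TGANTCA. The TATA box motif was matched in the windows of Krt8 (2 overlapping matches, 1 on each strand) and Spp1, and in 12.9% of all 33469 promoters. The Krt8 matches began 106 and 104 bases before the tabulated start, and the Spp1 match 204 bases before it. The GC box motif was matched in the windows of Krt18 (1 match) and Cftr (2 matches), and in 30.5% of all promoters. All of these are matches of letters only, and whether any is used in the cell was not tested. None of the 4 windows held the Onecut core, the CCAAT box or the AP-1 site, which 7.10%, 34.0% and 6.34% of all promoters hold. Cftr and Krt18 had 69.2% and 62.0% G and C, Krt8 60.0% and Spp1 46.8%, against a median of 51.2% over all promoters.

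Of the 7 measured genes, 6 were lower in adult islets (Cftr, Onecut1, Spp1, Car2, Krt18 and Krt8) and Krt19 alone was higher. All 7 passed the test, while 52.3% of all tested probes did, 21.3% higher and 31.0% lower. In 7 of 7 the 3 adult arrays did not overlap the 3 P10 arrays, which held for 77.8% of probes measured on every array. With quantile normalization, median scaling or the authors' values 5 were lower, Krt8 no longer passing, and with no scaling 3 were lower, Krt8, Krt18 and Car2 then standing above 0 and not called. The median difference of the 7 was -1.10, beside -0.23 over all tested probes. Leaving out P10 array 3 left 1 P10 sample, and calls became fewer over all tested probes. Krt8, Krt18 and Car2 then lost the call, at -0.76, -0.95 and -1.14. Leaving out adult array 1 left 1 adult sample, and calls became more frequent over all tested probes. The same held on slide 1 alone, where adult array 1 was set against P10 arrays 1 to 3, each as its own sample. Calls on slide 1 alone thus rest on no spread between adults. List counts given below for these settings are to be read beside those shifts. Fewer cells of a type and less RNA per cell cannot be told apart in RNA of whole islets.

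**Figure D1:**
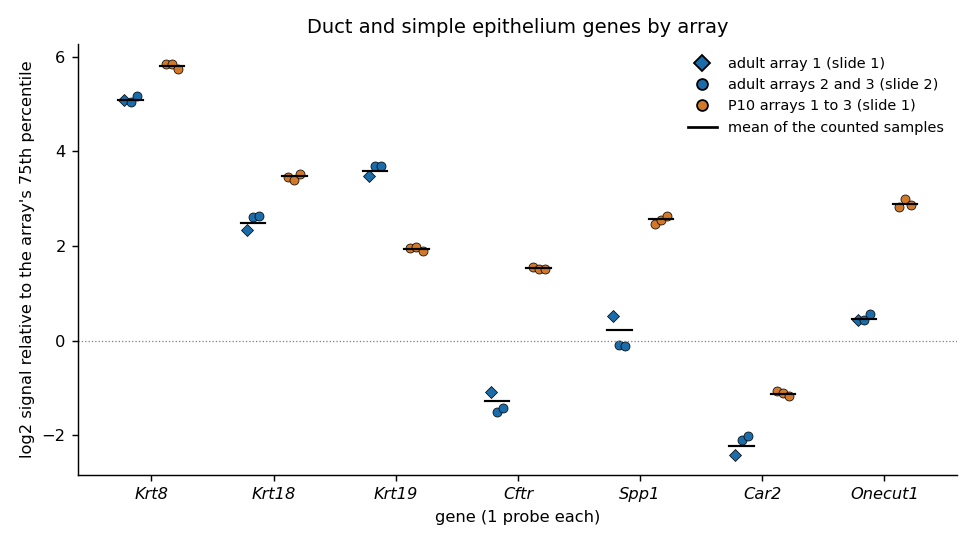
Level of each measured gene on every array, in log2 units from the 75th percentile of all probes, with black bars at the mean of the 2 counted samples per stage. Adult points lie below P10 points for 6 genes and above them for Krt19, with no overlap in any of the 7.

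Krt19 encodes a type I keratin that marks pancreatic ducts and other simple epithelia, and it was the member that rose. Its level was 3.48, 3.70 and 3.69 on adult arrays 1 to 3 and 1.95, 1.99 and 1.89 on P10 arrays 1 to 3. All adult arrays were above all P10 arrays, and the gap was several times the spread within a stage. The rise was 1.66 (SE 0.15, limma adjusted p = 0.00359), or 3.15-fold, with a 95% interval of 1.23 to 2.08. On slide 1 alone it was 1.53. With quantile normalization it was 1.71 and with no scaling 2.86, both past the test.

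Krt18, the other type I keratin measured, went the other way. It stood at 2.34, 2.62 and 2.64 on the adult arrays and at 3.47, 3.4 and 3.53 on the P10 arrays. All adult arrays were below all P10 arrays. The difference was -1.0 (SE 0.17, limma adjusted p = 0.0137), with a 95% interval of -1.47 to -0.53, and -1.13 on slide 1 alone. Its type II partner Krt8 stood at 5.08, 5.04 and 5.17 in adults and 5.86, 5.86 and 5.75 at P10. Here too no adult array reached a P10 array. The difference was -0.71 (SE 0.13, limma adjusted p = 0.0177), and -0.74 on slide 1 alone. The value for Krt8 rested on the scaling, since quantile normalization gave 0.0054 (limma adjusted p = 0.974) and median scaling -0.41 (limma adjusted p = 0.113).

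Ratios between genes within an array do not change with a factor applied to the whole array. The Krt19 signal over the Krt18 signal, in log2, was 1.14, 1.08 and 1.06 on adult arrays and -1.52, -1.41 and -1.64 at P10. That offset includes each probe's own affinity, so only its change between stages, 2.65, can be read. The 2 type I keratins thus changed unequally on every array. Krt8 over Krt18 was 2.74, 2.42 and 2.54 on the adult arrays against 2.39, 2.46 and 2.22 on the P10 arrays, and these ranges overlapped. An exact two-sided permutation test over the 4 counted samples cannot go below 0.333, the p it gave for both ratios.

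Among other keratin genes, 19 of 43 listed were tested, 3 of them higher, 7 lower and 9 not called, with a median of 0.09. Lower ones included Krt14, known from basal epithelial cells, at -2.99 (limma adjusted p = 0.00752). Krt34, a hair keratin, and Krt13 were not well above background in adults and were at least 9.72-fold and 5.40-fold lower there. Such bounds set the brighter stage's mean against, on each dim array, the lowest signal of any probe well above background or the gene's own signal, whichever is higher. Krt25, known from hair follicles, was higher at 3.75 (limma adjusted p = 0.0111). Krt36 and Krt73, not well above background at P10, were at least 4.04-fold and 2.50-fold higher, the bound for Krt36 resting on its own P10 signal. Without adult array 1, 7 other keratins were higher, and without P10 array 3, 1 was. Of 9 tested genes for desmosomes and plakins, which anchor keratin filaments, 2 were higher (Dst at 1.24 and Evpl at 1.08) and 2 lower (Pkp3 at -1.26 and Perp at -1.09). Leaving out P10 array 3, limma called 0 of these linkers in either direction, with 2 higher and 2 lower at an unadjusted p under 0.05.

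Cftr had the steepest fall of the members. It stood at -1.07, -1.50 and -1.42 on the adult arrays and at 1.56, 1.51 and 1.52 at P10. The P10 arrays were tight, and adult array 1 lay above the other adult arrays. The difference was -2.80 (SE 0.19, limma adjusted p = 0.0021), a 6.95-fold lower signal with a 95% interval of -3.32 to -2.27, and -2.60 on slide 1 alone. With no scaling at all it was still -1.60 (limma adjusted p = 0.00919). Its GC-rich upstream window is printed above.

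Car2, the cytosolic carbonic anhydrase, stood at -2.42, -2.09 and -2.0 in adults and -1.06, -1.11 and -1.18 at P10. Adult arrays were all lower, by -1.10 (SE 0.19, limma adjusted p = 0.0139), and by -1.30 on slide 1 alone. Before scaling, its signals were 481.6 to 491.4 in adults and 443.2 to 486.2 at P10, close to each other and overlapping, while other probes were brighter on adult arrays. Car2 over Cftr on the same array, in log2, was -1.345, -0.587 and -0.585 in adults. At P10 it was -2.627, -2.624 and -2.70. The ratio rose by 1.70 (exact two-sided permutation p = 0.333, the lowest possible), so the 2 genes changed unequally.

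Further genes of duct fluid secretion were counted from a list of channels, exchangers and receptors. Of 20 tested, 9 were lower, 5 higher and 6 not called, with a median of -0.71. The steepest falls were in the chloride-bicarbonate exchanger gene Slc26a3, at -7.74 (SE 0.15, limma adjusted p = 0.00111), and the sodium-proton exchanger gene Slc9a3, at -6.89. The scaffold gene Nherf1, whose product binds Cftr, stood at -3.18 (SE 0.33, limma adjusted p = 0.00475). Slc26a3 and Slc9a3 are also genes of the gut surface, and the enterocyte markers given further on were mostly lower in adults too. The part of gut RNA in these falls was not tested. The secretin receptor gene Sctr stood at -1.08, the exchanger gene Slc26a6 at -2.05 and the chloride channel gene Ano1 at -1.64, which were picked after their values were seen. All 3 passed the test. The bicarbonate cotransporter gene Slc4a4 stood at -1.03 (SE 0.31, limma adjusted p = 0.0558) and was not called. Higher were the purinergic receptor gene P2ry1 at 2.13, the calcium-sensing receptor gene Casr at 1.14 and the potassium channel gene Kcnn4 at 1.12. The list gave 1 higher and 6 lower without P10 array 3.

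The carbonic anhydrase family went both ways. Beside Car2, 11 members were tested, 4 higher, 6 lower and 1 not called. Car14 stood at -5.34 (SE 0.13, limma adjusted p = 0.00113), well above background on 1 of 3 adult arrays. Car12 and Car5a, not well above background in adults, were at least 6.63-fold and 3.91-fold lower there. Car9, the membrane form known from low oxygen, rose by 1.84 and was well above background on 2 of 3 P10 arrays. The membrane-anchored Car4 rose by 1.48 and Car8 by 0.94. Leaving out P10 array 3 gave 1 higher and 4 lower.

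Spp1 encodes osteopontin, a secreted phosphoprotein that binds integrins and Cd44. It stood at 0.53, -0.08 and -0.10 on the adult arrays and at 2.46, 2.55 and 2.63 at P10. Adult array 1, on the slide of the P10 arrays, lay above the other adult arrays but well under all P10 arrays. The difference was -2.35 (SE 0.26, limma adjusted p = 0.00531), or 5.10-fold, with a 95% interval of -3.08 to -1.62, and -2.02 on slide 1 alone. Of 7 tested genes that bind or cleave osteopontin, the receptor gene Cd44 was higher by 1.68 (SE 0.16, limma adjusted p = 0.00393). The thrombin gene F2 was lower, at -3.23, and the other 5 were not called. Without adult array 1, 2 were higher and 2 lower. Macrophages also make osteopontin. Of 19 macrophage markers tested, 19 were higher in adults (10 without P10 array 3), and their summed signal, with the array's 75th percentile as 1, was 76.53 to 79.41 in adults and 13.91 to 20.76 at P10. Among them Mmp12 rose by 3.67 and Lyz2 by 2.84, while Itgam, too dim at P10 to be well above background, rose at least 14.2-fold. The part of macrophage RNA in the Spp1 signal was not tested.

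Onecut1 stood at 0.43, 0.44 and 0.57 in adults and at 2.82, 2.99 and 2.86 at P10. The stages were far apart, with every adult array well under every P10 array. The difference was -2.41 (SE 0.13, limma adjusted p = 0.0016), or 5.33-fold, with a 95% interval of -2.78 to -2.05, and -2.46 on slide 1 alone. Among 12 tested genes of the embryonic duct and foregut programme, 7 were lower, 2 higher and 3 not called, with a median of -0.71. Hnf4a stood at -1.78 (SE 0.18, limma adjusted p = 0.00443), Foxa3 at -1.49 and the Notch target Hes1 at -1.07. Higher were Nkx6-1, a factor of mature beta cells, by 2.92, and Foxa2 by 0.86. Leaving out P10 array 3, 1 gene was higher and 2 were lower. Hepatocyte markers, which also mark the liver where Onecut1 acts, gave 5 higher and 6 lower of 12 tested, with summed signals of 15.39 to 19.99 in adults and 16.89 to 18.17 at P10, which overlap.

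Of 18 listed mucins and mucin-like surface genes, 4 were tested, and 2 were higher, the endothelial sialomucin gene Emcn by 0.74 and Cd164 by 0.49. The other 2 were not called, and 1 of the 4 was lower on slide 1 alone and without adult array 1. Leaving out P10 array 3, limma called 0 in either direction, and 0 passed at an unadjusted p under 0.05.

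The scaling between arrays set the size of the smaller changes. The array's 75th percentile was 10.93 to 11.36 in adults and 9.92 to 9.99 at P10. Before scaling, Krt8 signals were 67330 to 88500 in adults and 53800 to 58920 at P10, and those of Krt18 12140 to 13270 and 10200 to 11570. With no scaling, Krt8, Krt18 and Car2 stood at 0.49, 0.20 and 0.10, with limma adjusted p-values of 0.089, 0.336 and 0.613. With quantile normalization Krt18 and Car2 were lower, at -0.95 (limma adjusted p = 0.0114) and -1.03 (limma adjusted p = 0.00582). Cftr, Onecut1 and Spp1 were lower and Krt19 higher, past the test, under every scaling run. In the authors' deposited table, Krt8 stood at 15.99 in adults and 15.98 at P10, and Cftr at 9.28 and 12.07. The median over all probes was -0.23 with the reported scaling and -0.02 with quantile normalization.

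**Figure D2:**
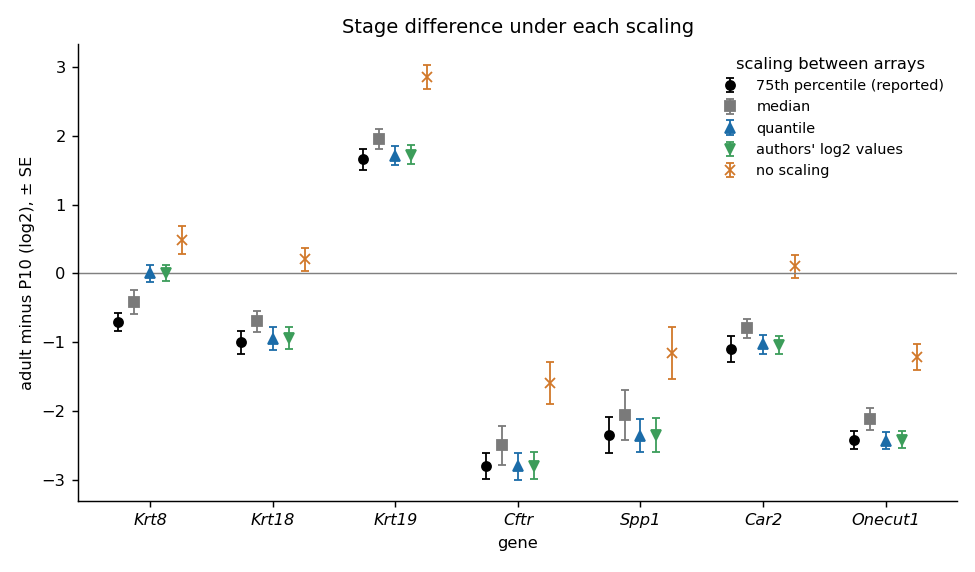
Adult minus P10 difference of each gene in log2, with error bars of 1 SE, under 5 ways of scaling between arrays. Krt8 ranges from -0.71 to 0.49, while Cftr, Spp1 and Onecut1 lie below 0 and Krt19 above 0 throughout.

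Other genes known from duct cells moved in both directions. Of 23 tested, 9 were higher, 9 lower and 5 not called, and their median was -0.09. Lower were the lectin gene Lgals4, at -3.95 (SE 0.17, limma adjusted p = 0.00134), the lipocalin gene Lcn2, at -3.11, and the trefoil factor gene Tff1, at -2.75. Higher were the matrix protease gene Mmp7, by 5.76 (SE 0.20, limma adjusted p = 0.00131) and well above background on 2 of 3 P10 arrays, and Gabrp, a GABA receptor subunit gene, by 2.49. Pigr, which carries antibodies across epithelia, was too dim at P10 to be well above background and rose at least 4.27-fold. The stem and duct cell marker Prom1, read by the brighter of its 2 tested probes, stood at 0.32 (SE 0.13, limma adjusted p = 0.104) and was not called. Krt20, at -1.57, is on this list and on the enterocyte list, and Lgals4 is likewise known from gut epithelium. Without both, 9 were higher and 7 lower of 21. Leaving out P10 array 3, 3 of the 23 were higher and 8 lower.

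Genes of epithelial adhesion and tight junctions were mostly lower in adults. Of 30 tested, 19 were lower, 1 higher and 10 not called, with a median of -0.90 beside -0.23 over all probes. The claudin genes Cldn10 and Cldn15 stood at -4.52 (SE 0.20, limma adjusted p = 0.00142) and -2.74, and the membrane protease gene Prss8 at -2.99. The epithelial adhesion gene Epcam, picked after its value was seen, stood at -1.29. With quantile normalization 17 were lower and 1 higher. On slide 1 alone the junction median was -1.03. That median was -0.89 without P10 array 3 and -0.84 without adult array 1. Fewer junction genes were called lower without P10 array 3, as were fewer of all tested probes.

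**Figure D3:**
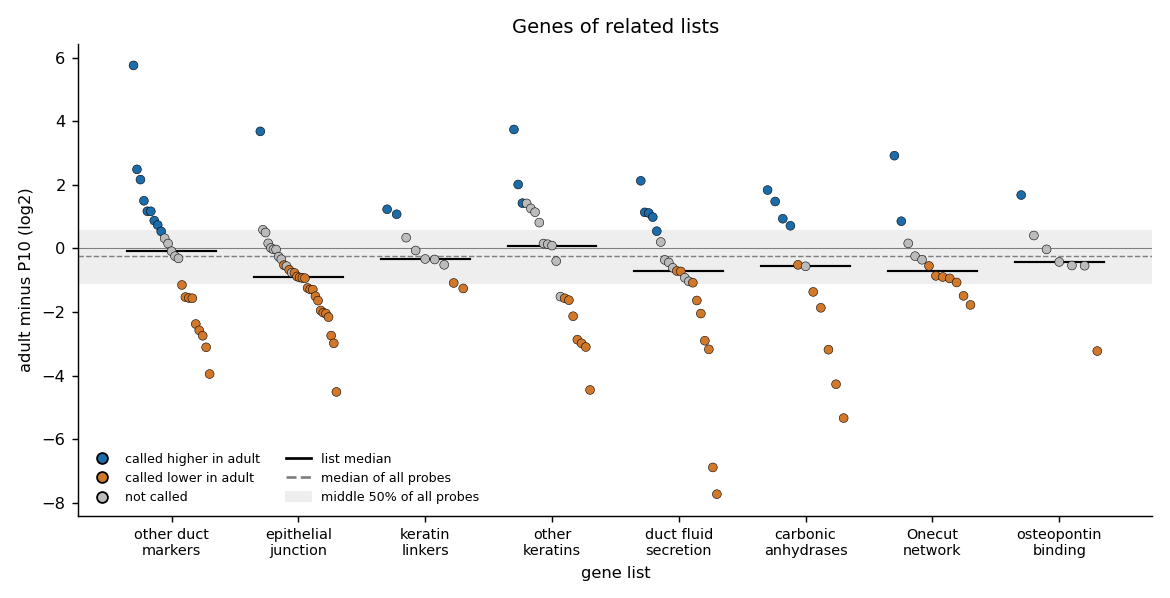
Adult minus P10 difference in log2 of each tested gene in 8 lists related to the members, coloured by call, with the list median as a bar and the middle 50% of all probes as a band. Other duct markers and carbonic anhydrases spread to both sides of 0, while 19 of 30 junction genes were called lower.

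Markers of other cells differed on the same arrays. Acinar cells, which adjoin the ducts and carry Krt8 and Krt18, had 26 of 30 tested markers lower in adults and 2 higher (12 lower and 3 higher with quantile normalization). Without P10 array 3, 11 were lower and limma called 0 higher, with 1 higher at an unadjusted p under 0.05. Their summed signal with the reported scaling was 1322 to 1829 in adults and 3974 to 4214 at P10, and 0 of 30 were below background throughout a stage. The size of this gap depends on the scaling, since the median acinar difference was -1.39 as reported and -0.30 with quantile normalization. Enterocytes also carry Krt8, Krt18, Cftr and the junction genes. Krt19, which marks simple epithelia including this one, rose by 1.66. Of 24 tested enterocyte markers, 21 were lower in adults and 2 higher. Their summed signal was 15.85 to 16.05 in adults and 382.2 to 397.9 at P10. Fabp1 and Fabp2 were called lower, but each was well above background on only 1 of 3 adult arrays, so the sizes of their falls are not given. Apoa4, which did not rise well above background on any adult array, fell at least 7730-fold. Apoa4, Ms4a10, Treh and Fabp6 were below background on all adult arrays and 0 enterocyte markers were at P10. The part of acinar and enterocyte RNA in the changes of the members was not tested.

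Krt19 is also a keratin of mesothelium, the flat epithelium on the surface of abdominal organs. Leaving out Krt19, Krt7 and Cpe, which endocrine cells also make, 5 of 7 tested mesothelial markers were higher in adults, 1 lower and 1 not called. Upk1b rose by 2.56, Itln1 by 1.99 and the mesothelin gene Msln, picked after its value was seen, by 1.53. Calb2, too dim at P10 to be well above background, rose at least 4.91-fold, a bound that rests on its own P10 signal. Wt1 stood at 0.29 (SE 0.21, limma adjusted p = 0.305), and Rspo1 was lower at -1.08. With Krt19 and Cpe, the summed signal of the list was 114.7 to 159.5 in adults and 43.97 to 45.74 at P10, with 7 of 9 higher, or 4 without P10 array 3, where Rspo1 was no longer called. Their part in the rise of Krt19 was not tested.

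Islet endocrine markers were present in both stages, with 0 of 23 below background throughout a stage, and 17 were higher in adults and 3 lower, the latter not called without P10 array 3. Of the fibroblast and stellate cell markers, 2 were higher and 6 lower of 12, and summed signals were 56.38 to 81.50 in adults and 131.7 to 139.4 at P10. Of these, 3 were lower without P10 array 3, and 5 were higher without adult array 1. Erythroid markers, of interest because red cells hold carbonic anhydrase 2, gave 5 higher and 2 lower of 13, with sums of 105.5 to 113.5 in adults and 74.33 to 76.10 at P10. Leaving out P10 array 3, 1 of these was higher and limma called 0 lower, with 0 lower at an unadjusted p under 0.05.

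**Figure D4:**
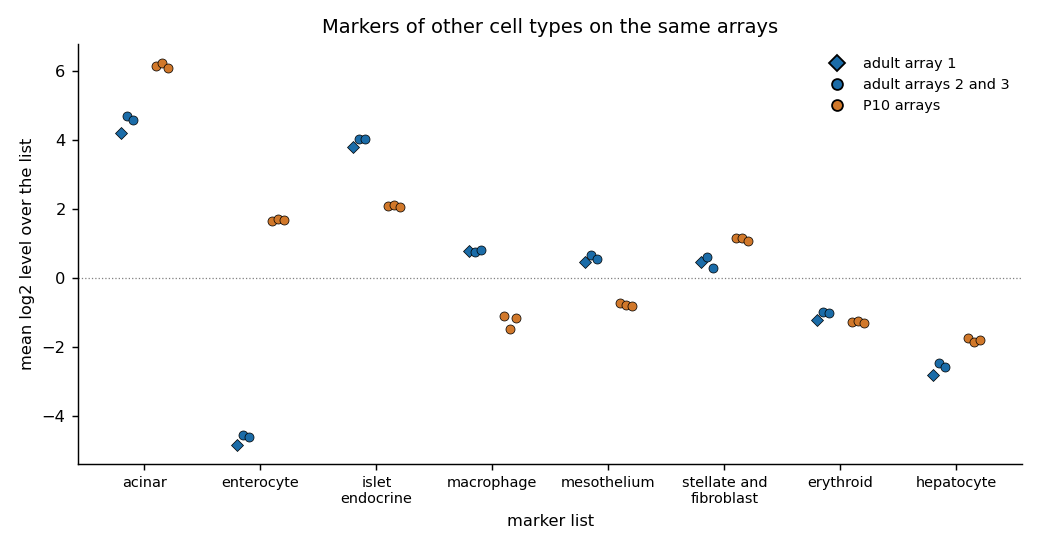
Mean log2 level of 8 marker lists on each array, in log2 units from the 75th percentile of all probes. Acinar and enterocyte lists lie higher at P10, and endocrine, macrophage and mesothelial lists higher in adults. The mesothelial list drawn here includes Krt19 and Cpe, and only the reported scaling is shown.

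Profiles most like those of the members were searched among 10203 named protein-coding genes well above background on all 6 arrays, by Euclidean distance between profiles centred on their own mean. Nearest to Krt19 were Tpm2 (distance 0.0519), a tropomyosin gene, and Fn3k (0.0633). Nearest to Krt18 were Cuedc1 (0.0551) and Styxl1 (0.0815), and to Krt8 Ube2t (0.0675) and Clk4 (0.0761). For Cftr these were Psat1 (0.0848), of serine synthesis, and Fut4 (0.129), and for Car2 Asns (0.0615), the asparagine synthetase gene, and Cmss1 (0.0702). Lpar4 (0.17) and Ctf1 (0.193) were nearest to Spp1, and Tdrp and Wdtc1 (both 0.121) to Onecut1. Among the members themselves, Krt18 and Car2 were the closest pair (0.226), and Cftr and Spp1 lay 0.586 apart, while Krt19 lay 2.95 or more from each other member. None of the members was among the 2 nearest genes of another.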

How the data were processed

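Probe names came from RefSeq accessions matched to a GRCr8 gene table, which named 14294 of 24684 probes. The array's own annotation uses an older build, so no probe coordinates are given. The deposited files hold the intensity of each spot. The submitters' processing notes name Feature Extraction, version 11.0.1.1, and per the file headers the processed intensity is background-subtracted and detrended. The authors also deposited normalized log2 values, for which no method is given in the sources used here. Of these, 98.77% lay within 0.05 of quantile-normalized processed signals.

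Spots flagged as outliers were left out, log2 signals of a probe's spots averaged, and each array's 75th percentile subtracted. Probes well above background on all 3 arrays of a stage were fitted by limma (version 3.58.1, R 4.3.3; lmFit, then eBayes), and p-values were adjusted by the Benjamini-Hochberg method. The code of the fit was run on simulated data with independent errors, which held none of the slide or brightness differences of these arrays. In lists, each gene entered with its brightest probe. Alternatives were other scalings, normexp on the median signal (offset 50), the authors' values, every array as its own sample, no filter, outlier spots kept, slide, replicate number and each array left out.

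The members and lists were chosen with earlier results of these data known. Named from each list were up to 3 called genes with the largest rise and 3 with the largest fall, besides those marked as picked later. A few genes of these lists are counted but not reported here by name.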

Additional observations from a re-analysis of the deposited data

How the results depend on the processing

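Krt19, Cftr, Spp1 and Onecut1 kept their direction and passed the test in all 20 alternatives. On slide 1 alone and without adult array 1, the p-values hold no spread between adult samples. Krt8 stood at 0.0054 with quantile normalization, 0.038 with normexp, 0.0077 with the authors' values, 0.034 with quantile normalization on slide 1, 0.49 with no scaling, -0.41 with median scaling and -0.018 with quantile normalization and every array as its own sample. Krt18 and Car2 stood at 0.20 and 0.10 with no scaling. The fit with no scaling, and those joining quantile normalization with slide 1 or with every array, were added after the data were seen. With no scaling 3 members were lower, and the array brightness then stays in each value.

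Leaving out each array in turn gave -0.76 to -0.68 for Krt8, -1.01 to -0.85 for Krt18 and -1.14 to -0.91 for Car2, each losing the call without P10 array 3 (limma adjusted p = 0.209, 0.149 and 0.105), where the lone P10 sample is assumed to vary like the adults. The members called lower numbered 3 to 6, other duct markers called higher 3 to 10, and junction genes 1 to 4 higher and 7 to 21 lower. Junction genes called higher numbered 2 with normexp, the authors' values, every array as its own sample, the slide block, slide 1 alone and the replicate block, and 3 with quantile normalization on slide 1 or with every array. The causes were not tested.

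Deviations of same-numbered arrays correlated at -0.21, 0.08 and -0.24, which gave no sign of pairing by replicate number. These values cannot exclude pairing, because the P10 arrays differed by little more than spot noise. With the replicate block 4713 probes were higher and 6786 lower, against 5307 and 7470 with every array and no block, and Cftr stood at -2.86. Another 68 genes were followed across these settings, except no scaling and the mean over a gene's probes, where they were not fitted. Of their 1186 values, 1132 kept direction and call, 28 lost and 26 gained the call, and 0 turned. Many of these genes were picked as the largest called changes of their list, which favours keeping direction and call. The mean over a gene's probes gives the same member values, as each has 1 probe. Signals of 1 spot per array limit the precision.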
